A study of Mus musculus with 12 samples.

Results

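The genes described here are 8 myeloid effector genes of nitric oxide, itaconate and arginine metabolism and of the oxidative burst, followed across tumors of the murine mastocytoma line P815. They are Nos2, Acod1, Arg1, Ass1, Slc7a2, Gch1, Cybb and Ncf1, and they are 8 of the 32288 rows counted in each library. They were chosen by name, with earlier results of these data known. All 8 passed the filter of at least 10 counts in total over the 12 libraries, as did 18804 rows in all. Each library came from the single subcutaneous tumor of 1 DBA/2 mouse, of either sex and 8 to 10 weeks old when the experiment began. P815-IFNG (P815-IFNγ in the sample labels) is 1 single-cell clone that carries GAVPO, a light-sensing transcription activator driven by the EF-1α promoter, a UAS-driven cassette of Ifng, Cxcl10 and a humanized Gaussia luciferase, and mRuby with firefly luciferase. P815-M is 1 single-cell clone that carries mRuby and firefly luciferase alone. In the light groups a tracking laser aimed blue light at the tumor area for 12 h per day for 6 days, while the dark groups had none. The paper states single housing in light-controlled cages for the light group and does not describe housing of the dark group. Light and housing may therefore not be told apart. The groups were P815-IFNG light, P815-IFNG dark, P815-M light and P815-M dark, with 3 mice in each. Because each line is 1 clone, the transgene and the clone cannot be told apart.

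Interferon gamma is the classical activator of macrophages, and several of its target genes feed on arginine and on intermediates of the citric acid cycle. Nos2 encodes the inducible nitric oxide synthase, which turns arginine into nitric oxide and citrulline and needs tetrahydrobiopterin as a cofactor. Gch1 encodes the enzyme that starts tetrahydrobiopterin synthesis, Ass1 encodes argininosuccinate synthase, which starts the recycling of citrulline to arginine, and Slc7a2 encodes the cationic amino acid transporter that brings arginine into macrophages. Arg1 encodes arginase, which draws on the same arginine to make ornithine and urea and is known as a gene of alternatively activated and tumor-associated macrophages. Acod1 (also called Irg1) encodes the mitochondrial enzyme that makes itaconate from cis-aconitate. Cybb encodes the catalytic membrane subunit of the phagocyte NADPH oxidase, and Ncf1 its cytosolic organizer p47phox.

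In 10 libraries the total was 2211234 to 2946792 counts, whereas the third replicates of P815-IFNG light and P815-IFNG dark held 41473500 and 42338096 counts and are called the deep libraries here. The deep libraries stood apart in their values too. Pearson's r of log2(CPM + 1) was 0.99 between them, 0.96 to 0.98 among the other 10, and 0.84 to 0.89 between the 2 kinds, where CPM is the count scaled to a common library size with TMM factors. The libraries were made with a kit that marks the strand, and the mitochondrial gene mt-Nd6, which lies opposite the other mitochondrial protein-coding genes, took 29.0% to 47.9% of mitochondrial counts in the 10 libraries against 3.56% and 3.85% in the deep pair. Whether the libraries of the 2 kinds were counted on the same strand was not tested, so groups are called overlapping or not only within a kind, and the values of the deep libraries are given apart. A floor of 3 counts corresponded to 0.931 to 1.56 CPM in the 10 libraries and to 0.0670 to 0.0694 CPM in the deep pair, counting error only. In the mast cell list, 8 of 9 markers were tested and their summed level was 1395 to 2345 CPM in the 10 libraries and 9005 and 6957 CPM in the deep light and dark libraries, with Fcer1a not tested. The summed level of 10 macrophage and monocyte genes was 670 to 1739 CPM in the 10 libraries and 673 and 584 CPM in the deep pair, with none at 0. The neutrophil list summed to 41.5 to 72.4 CPM in the 10 libraries, with 1 to 5 of its 7 tested genes at 0, and to 211 and 199 CPM in the deep pair. Since whole tumors were sequenced, fewer cells of a type and less RNA per cell cannot be told apart.

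The 4 comparisons, and how far the lines differed in their light effect, were fitted together over all 12 libraries with a term for the deep libraries. They share groups: P815-IFNG light enters the comparison with its own dark group and that with P815-M light, and each of the other groups likewise enters 2 comparisons. A gene was called at an edgeR quasi-likelihood adjusted p of at most 0.05 with a log2 fold change of 1 or more in size. By this rule 0 of the 8 genes were called for light against dark in P815-IFNG tumors (0.0106% of all tested genes), 0 in P815-M tumors (1.03% of all), 0 for P815-IFNG against P815-M in light (0.436% of all), and 1, Cybb, for P815-IFNG against P815-M in dark (1.54% of all). For the difference between the lines in the light effect it was 0 as well (0.016% of all). At an unadjusted edgeR p of at most 0.05 the numbers were 3, 3, 3 and 3 of 8 in the 4 comparisons, against 8.34%, 12.5%, 11.1% and 16.3% of all tested genes, and 0 of 8 against 5.73% for the difference between the lines. Because the 8 genes were chosen with earlier results of these data known, these counts are a description and not separate evidence. By DESeq2, 1 of 8 was called for P815-M light against dark and 1 for the lines in dark, in both cases Cybb, and 0 in the other comparisons. Of 18800 genes with a DESeq2 p, 58, 293, 114 and 408 were called in the 4 comparisons and 23 for the difference between the lines. After ComBat-seq, with the deep libraries as the batch, 3, 1, 3 and 1 of 8 were called in the 4 comparisons. Of the 18674 genes tested there, 157, 257, 262 and 570 were called. With a replicate block the numbers were 2, 2, 2 and 1 of 8, against 62, 282, 104 and 367 of 18804 tested genes.

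The direction of the values was shared more widely than the calls. In P815-IFNG tumors all 8 genes had a fitted value above 0 for light against dark, against 46.7% of all tested genes. The median log2 fold change was 0.53, against -0.03 over all tested genes. The values of Ass1, Gch1, Arg1 and Slc7a2 were smaller than their SE. Those of Gch1, Arg1 and Slc7a2 fell below 0 over the 10 libraries without the deep pair. In P815-M tumors 6 of 8 were above 0, against 51.1% of all genes, with a median of 0.85 against 0.01 over all genes. For P815-IFNG against P815-M the medians were 0.55 in light and 0.65 in dark, against 0.02 and 0.06 over all genes. Each time 6 of 8 were above 0, against 51.2% of all genes in light and 55.0% in dark. For the difference between the lines in the light effect, 4 of 8 were above 0, against 46.8% of all genes. The median was 0.01, against -0.04 over all genes. These comparisons share libraries and genes, so their medians are a description and not separate evidence.

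**Figure D1:**
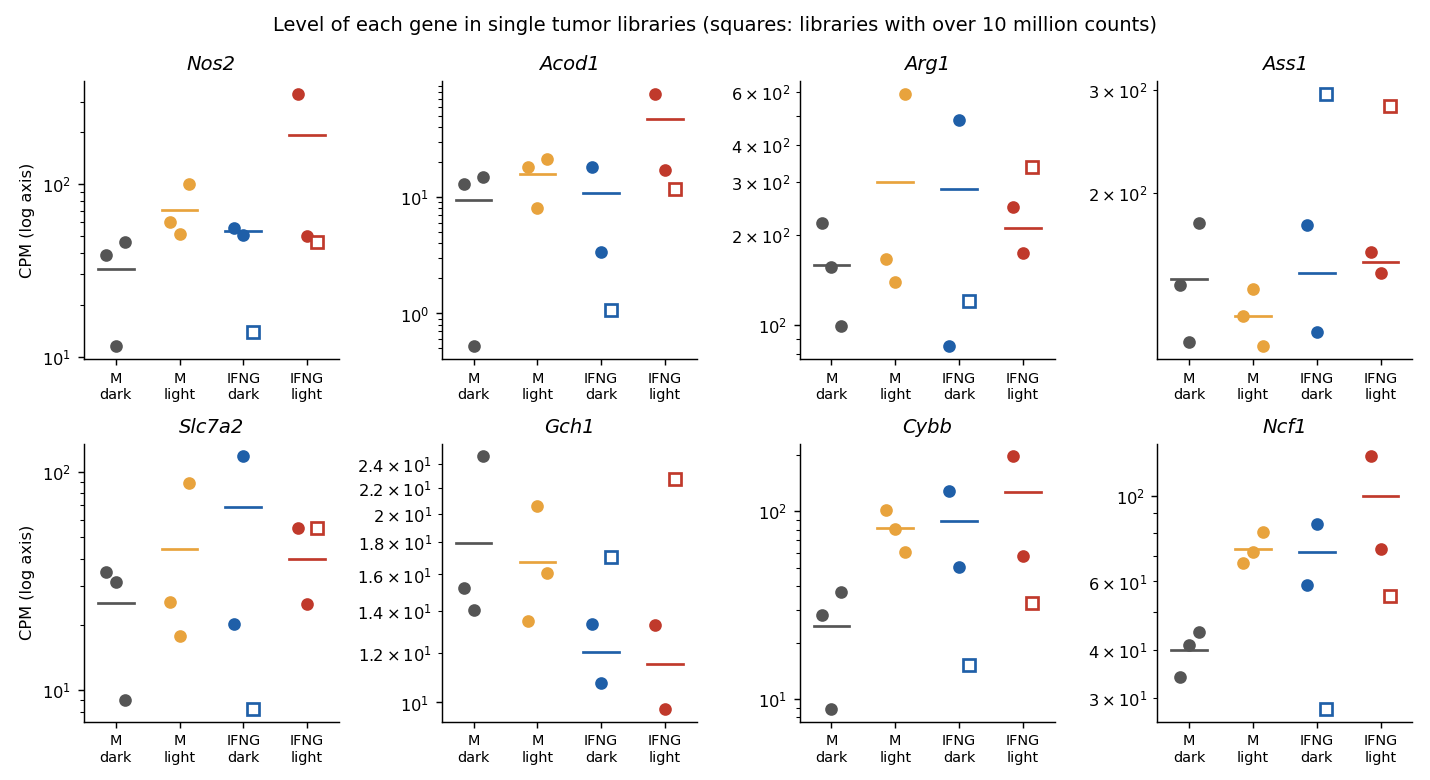
CPM of each of the 8 genes (log axis) in single tumors by group, P815-M dark and light and P815-IFNG dark and light. Filled circles are the 10 libraries of lower total, open squares the deep libraries, and the horizontal line is the mean of the circles. Nos2, Acod1 and Cybb were highest in P815-IFNG light replicate 1 and lowest, among the circles, in P815-M dark replicate 2.

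Acod1, the itaconate gene, is annotated as protein coding at chr14:103046977-103056573 on the plus strand of GRCm38. It had the widest range of the 8 genes over the 10 libraries, 0.521 to 77.6 CPM or 149-fold, though the lowest value is a single count. In P815-IFNG light it was 77.6, 17.1 and, in the deep library, 11.8 CPM. In P815-IFNG dark it was 18.3, 3.35 and, in the deep library, 1.07 CPM. The deep light library was thus 3.46 above the deep dark library on the log2 scale, while the other libraries overlapped, since light replicate 2 lay below dark replicate 1. The fitted log2 fold change of light against dark was 2.60 (SE 0.62, 95% interval 1.30 to 3.90) with an edgeR adjusted p of 0.162. It was the largest fitted value of the 8 genes in this comparison and remained short of the threshold in this fit. Leaving out P815-IFNG light replicate 2 gave 3.10 (edgeR adjusted p = 0.0158) and leaving out P815-IFNG dark replicate 1 gave 3.61 (edgeR adjusted p = 0.0136), so each of these libraries decides the call, and over the 10 libraries without the deep pair the value was 2.13 (edgeR adjusted p = 0.376). The paper, from batch-adjusted counts, names Acod1 among genes highly expressed in P815-IFNG tumors in light, in contrast to dark.

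In P815-M tumors Acod1 was 18.2, 8.14 and 21.5 CPM in light and 12.9, 0.521 and 14.8 CPM in dark. The groups overlapped, and the fitted value was 0.71 (SE 0.67, 95% interval -0.70 to 2.12; edgeR adjusted p = 0.729). The light effect was 1.89 larger in P815-IFNG than in P815-M tumors on the log2 scale, with a 95% interval of -0.01 to 3.79 and an edgeR adjusted p of 0.862, so that no difference between the lines passed the test. In light, P815-IFNG was above P815-M by 1.80 (SE 0.66; edgeR adjusted p = 0.286). In dark the fitted difference of the lines was -0.09 (SE 0.68).

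Nos2 lies at chr11:78920787-78960254, plus strand. In P815-IFNG light it was 335, 49.8 and, in the deep library, 46.1 CPM, and in P815-IFNG dark 55.5, 50.9 and, in the deep library, 13.9 CPM. Light replicate 1 was far above every other library, whereas light replicate 2 lay below both dark libraries of its kind. The fitted log2 fold change of light against dark was 1.81 (SE 0.45, 95% interval 0.88 to 2.75; edgeR adjusted p = 0.164), and the deep pair alone differed by 1.73, without a test. The value rests in large part on single tumors: it was 0.79 without P815-IFNG light replicate 1 (edgeR adjusted p = 0.835) and 2.25 without P815-IFNG light replicate 2 (edgeR adjusted p = 0.00256). A two-sided exact permutation test on log2(CPM + 1) of the 3 against 3 libraries, which takes no account of depth, gave p = 0.6 for Nos2 and 0.3 for Acod1, where the smallest possible p is 0.1.

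In P815-M tumors Nos2 was 60.2, 51.2 and 101 CPM in light and 38.6, 11.5 and 46.1 CPM in dark. Here the groups did not overlap. Its fitted log2 fold change was 1.12 (SE 0.48, 95% interval 0.12 to 2.12), which did not pass the adjusted threshold (edgeR adjusted p = 0.332). The exact permutation p was 0.1, the smallest that 3 against 3 allows. P815-M carries no light-switchable cassette, and 3 of 8 genes, Nos2, Cybb and Ncf1, had every light library above every dark library in this line, against 10.1% of all tested genes. The same was true of 0 of 8 in P815-IFNG tumors when libraries of 1 kind were compared, against 8.58% of all tested genes. The difference between the lines in the light effect on Nos2 was 0.69 (SE 0.65, 95% interval -0.66 to 2.05). Between the lines in light Nos2 was 1.43 higher in P815-IFNG (SE 0.47, edgeR adjusted p = 0.225), but the value was 0.16 without P815-IFNG light replicate 1. The paper, from batch-adjusted counts, names Nos2 among genes raised in illuminated P815-IFNG rather than P815-M tumors.

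**Figure D2:**
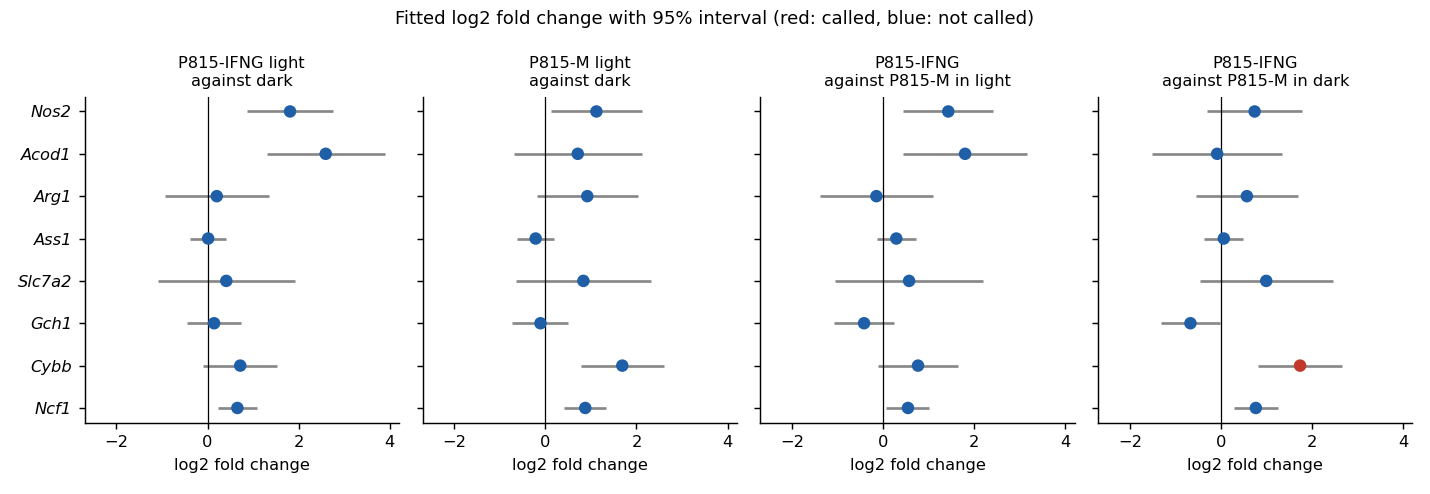
Fitted log2 fold change (horizontal axis) of the 8 genes with its 95% interval in the 4 comparisons, from the fit over 12 libraries with a term for the deep libraries. The red point, Cybb in the comparison of the lines in dark at 1.73, is the only called value, and intervals of Acod1, Nos2 and Ncf1 lie above 0 for light against dark in P815-IFNG.

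Cybb lies at chrX:9435252-9487771, minus strand. In the dark, P815-M tumors held 28.1, 8.86 and 37.0 CPM and P815-IFNG tumors 128, 50.3 and, in the deep library, 15.2 CPM. Both P815-IFNG libraries that can be set beside P815-M in depth were above all 3 P815-M libraries. The fitted log2 fold change of P815-IFNG against P815-M in dark was 1.73 (SE 0.44, 95% interval 0.81 to 2.66; edgeR adjusted p = 0.0443), a 3.32-fold difference and the single call among the 8 genes. The call is close to the threshold. It was lost over the 10 libraries without the deep pair (1.82, edgeR adjusted p = 0.0602) and without a term for the deep libraries (1.38, adjusted p = 0.604), and held by DESeq2 (1.69, adjusted p = 0.0295). It was also lost without P815-IFNG light replicate 1 (1.61), P815-IFNG dark replicate 1 (1.08), P815-M light replicate 1 (1.73) or 2 (1.73), or P815-M dark replicate 1 (1.82) or 2 (1.36), with adjusted p from 0.0542 to 0.332.

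In P815-M light Cybb was 102, 80.4 and 60.8 CPM, and every light tumor lay above every dark tumor. For light against dark the fit gave 1.69 (SE 0.44, 95% interval 0.78 to 2.60), a 3.22-fold difference that narrowly missed the threshold (edgeR adjusted p = 0.0608) and passed it by DESeq2 (1.73, adjusted p = 0.0228). In edgeR it passed without P815-IFNG light replicate 2, P815-IFNG dark replicate 1 or P815-IFNG dark replicate 2, libraries that enter this comparison only through the shared spread (1.69, 1.66 and 1.69, with adjusted p of 0.0154, 0.0214 and 0.0286). In P815-IFNG light Cybb was 196, 58.1 and, in the deep library, 32.5 CPM, which overlapped with dark (0.72, SE 0.39; edgeR adjusted p = 0.638). The difference between the lines in the light effect was -0.97 (SE 0.58, 95% interval -2.18 to 0.24).

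Ncf1 lies at chr5:134220053-134229625, minus strand. It was 67.0, 71.3 and 80.5 CPM in P815-M light and 34.0, 41.2 and 44.4 CPM in P815-M dark. The tumors of each group were close together and the groups did not overlap. For light against dark the fit gave 0.87 (SE 0.22, 95% interval 0.41 to 1.34; edgeR adjusted p = 0.0566), below the fold required for a call. In P815-IFNG tumors Ncf1 was 126, 72.7 and, in the deep library, 55.1 CPM in light and 58.7, 84.4 and, in the deep library, 28.1 CPM in dark (0.66, SE 0.21; edgeR adjusted p = 0.318). Between the lines in dark the value was 0.76 (SE 0.23; edgeR adjusted p = 0.0834).

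Values of Ncf1 are uncertain, because 408 exonic bases of it overlap exons of Gtf2ird2 on the other strand. The row of Gtf2ird2 averaged 497 CPM in the 10 libraries against 19.7 in the deep pair, and that of Ncf1 68.0 against 41.6 CPM. Gtf2ird2 was 724, 605 and 515 CPM in P815-M light and 305, 341 and 364 CPM in P815-M dark, with a fitted log2 fold change of 0.87 (SE 0.22; edgeR adjusted p = 0.0608). The fitted values of the 2 overlapping rows for light in P815-M were thus the same to 2 decimals, and reads of 1 gene counted in the row of the other were not tested for. Slc7a2 shares 635 exonic bases with the antisense lincRNA Gm26584, for which no level is given here. The remaining 6 genes overlap no exon of another gene in the annotation used.

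Cybb and Ncf1 had the largest fitted values for light in P815-M among the oxidase genes. Of the 9 listed oxidase genes, all were above 0 for P815-IFNG against P815-M in dark, 4 of them at an unadjusted p of at most 0.05 and 1 called, with a median of 0.51. Of all tested genes 55.0% were above 0, 16.3% at that p and 1.54% called, and the 9 include Cybb, whose call this is, and Ncf1. Among those at that p was Rac2, the small GTPase of the complex, at 0.66 (SE 0.18). In light Rac2 was at 0.60 (SE 0.18), and 8 of 9 listed genes were above 0, the other being Rac1 at -0.44 (SE 0.19; edgeR adjusted p = 0.383). Cyba, the membrane partner of Cybb, was at 0.26 in dark and 0.16 in light, and Ncf4, the p40phox subunit, at 0.62 and 0.67, all with an unadjusted edgeR p above 0.05. For light against dark in P815-M, Rac2 was at -0.14, Cyba at 0.15 and Ncf4 at 0.16, well below Cybb and Ncf1. The third gene of the list at an unadjusted p of at most 0.05 there was Rac1, a GTPase found in most cells, at 0.44 (SE 0.18).

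Promoter sequence was matched for Acod1, Cybb, Ncf1, Gch1 and Ass1 (5 of 8 genes) in the RefSeq table of GRCm38.p6, and not for Nos2, Arg1 and Slc7a2. The 250 bases before the start are shown for Cybb and Ncf1, which had the smallest p-values for light in P815-M tumors, for Acod1, which had the largest fitted value in P815-IFNG tumors, and for Gch1, which differed little with light. They run 5′ to 3′ on the strand of the gene. Capitals mark matches, on either strand, to the interferon-stimulated response element (ISRE, searched as GAAANNGAAA), the gamma-activated site (GAS, TTCNNNGAA), its wider-spaced form TTCNNNNGAA, the AP-1 site (TGANTCA), the C/EBP site (TTGCNNAA), the TATA box (TATAAA) or NF-kB.
Cybb, chrX:9469325-9469574, minus strand: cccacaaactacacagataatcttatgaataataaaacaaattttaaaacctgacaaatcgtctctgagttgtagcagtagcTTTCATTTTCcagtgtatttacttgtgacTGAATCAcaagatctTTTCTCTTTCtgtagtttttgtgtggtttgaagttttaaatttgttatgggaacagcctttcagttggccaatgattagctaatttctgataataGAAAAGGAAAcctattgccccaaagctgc
Ncf1, chr5:134229626-134229875, minus strand: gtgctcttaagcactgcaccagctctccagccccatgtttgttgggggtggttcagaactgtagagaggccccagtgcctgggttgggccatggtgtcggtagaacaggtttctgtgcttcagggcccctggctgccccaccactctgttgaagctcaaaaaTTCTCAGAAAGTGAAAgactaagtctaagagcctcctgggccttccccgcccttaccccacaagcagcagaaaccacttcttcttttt
Acod1, chr14:103046762-103047011, plus strand: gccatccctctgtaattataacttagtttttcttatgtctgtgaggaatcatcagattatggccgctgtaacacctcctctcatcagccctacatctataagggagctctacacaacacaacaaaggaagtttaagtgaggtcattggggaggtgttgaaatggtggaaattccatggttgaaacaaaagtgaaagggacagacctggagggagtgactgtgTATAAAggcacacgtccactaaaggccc
Gch1, chr14:47189414-47189663, minus strand: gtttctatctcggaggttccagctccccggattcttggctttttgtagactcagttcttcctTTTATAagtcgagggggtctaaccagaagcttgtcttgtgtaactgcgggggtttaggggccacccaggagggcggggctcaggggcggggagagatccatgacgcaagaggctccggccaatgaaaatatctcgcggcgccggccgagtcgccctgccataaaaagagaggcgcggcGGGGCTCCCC

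The Cybb window held 3 ISRE matches, at -168, -124 and -29 from the start, and 1 AP-1 match at -139. The Ncf1 window held a GAS match at -88 that overlaps an ISRE match at -82. The Acod1 window held a TATA box at -28 and none of the interferon motifs, and the Gch1 window held an NF-kB match at -10 and, on the other strand, TATA letters at -188. The Ass1 window held none of the motifs. Of 32851 RefSeq promoter windows of the same length, 2.98% held an ISRE match, 7.02% GAS, 5.85% its wider form, 6.75% AP-1, 9.56% C/EBP, 12.4% the TATA box and 7.25% NF-kB. A match is a run of letters in this window only, and the table places the start of Cybb inside the longer gene of the GENCODE annotation.

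Arg1, at chr10:24915221-24927484 on the minus strand, was among the most abundant of the 8 genes and varied between tumors of 1 group more than between groups. In P815-IFNG tumors it was 247, 174 and, in the deep library, 337 CPM in light and 85.0, 485 and, in the deep library, 121 CPM in dark. In P815-M tumors it was 166, 140 and 592 CPM in light and 220, 156 and 99.2 CPM in dark. The highest tumors, P815-M light replicate 3 and P815-IFNG dark replicate 2, came from different lines and opposite light conditions. In the fit, light against dark came to 0.20 (SE 0.54, 95% interval -0.93 to 1.34) in P815-IFNG and 0.92 (SE 0.53, 95% interval -0.19 to 2.03) in P815-M. Both intervals hold 0 and also a log2 value of 1, so neither no difference nor a difference of that size is excluded here. The sign turned with single tumors: the P815-IFNG value ran from -0.44 without dark replicate 3 to 1.39 without dark replicate 2, and the P815-M value was -0.05 without light replicate 3.

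Slc7a2, at chr8:40862396-40922308 on the plus strand, followed Arg1 tumor by tumor. It was 55.1, 24.9 and, in the deep library, 54.9 CPM in P815-IFNG light and 20.2, 117 and, in the deep library, 8.22 CPM in P815-IFNG dark. In P815-M it was 25.4, 17.7 and 89.0 CPM in light and 34.7, 31.3 and 9.05 CPM in dark. Its highest libraries were the same 2 as those of Arg1. Over the 10 libraries Pearson's r of log2(CPM + 1) between Arg1 and Slc7a2 was 0.92 (Spearman's rho 0.90), and 0.96 around the group means. Of 11998 other genes compared, Slc7a2 was the one most like Arg1, and Arg1 the one most like Slc7a2. The deep libraries, which did not enter that value, also held more of both genes in light, by 1.48 for Arg1 and 2.74 for Slc7a2 on the log2 scale. The fitted light effects on Slc7a2 were 0.41 (SE 0.72) in P815-IFNG and 0.83 (SE 0.71) in P815-M, neither with an adjusted edgeR p below 0.683, and the P815-IFNG value was -0.78 over the 10 libraries without the deep pair.

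**Figure D3:**
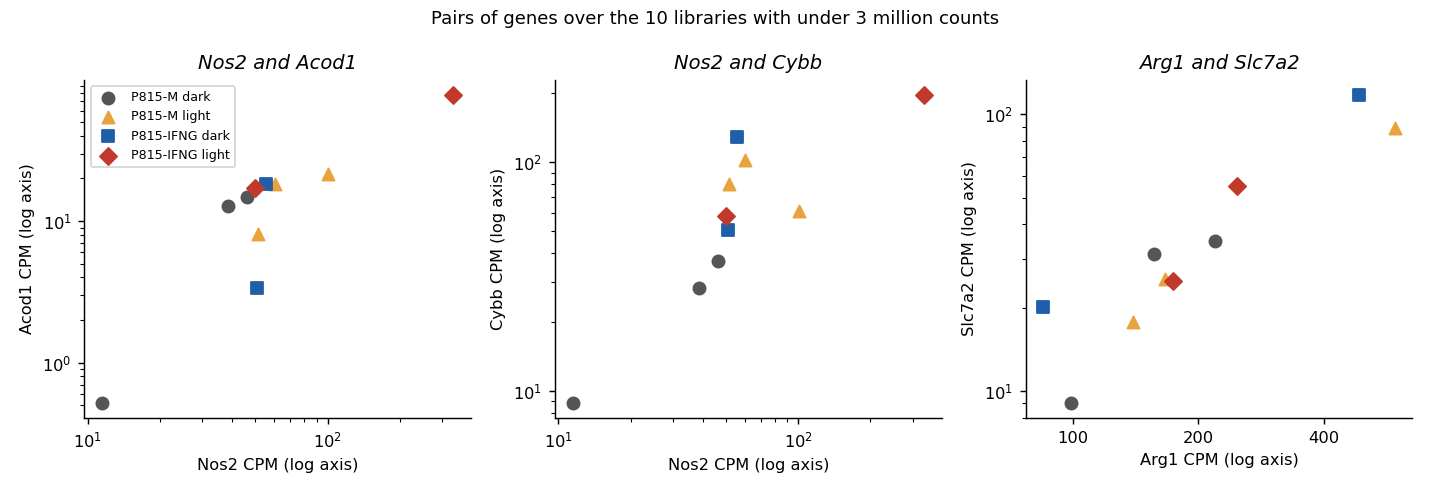
CPM of pairs of genes (both axes log) in the 10 libraries of lower total, by group. Acod1 and Cybb rise with Nos2 (r = 0.89 and 0.85), with P815-IFNG light replicate 1 at the top right, and Slc7a2 rises with Arg1 (r = 0.92) with tumors of both lines at each end.

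Correlations between the genes describe 10 tumors whose libraries share their depth and preparation. Nos2, Acod1 and Cybb went together (r = 0.89 for Nos2 and Acod1, 0.85 for Nos2 and Cybb, 0.81 for Acod1 and Cybb), and Ncf1 with Nos2 (0.79). Arg1 was little related to Nos2 (0.32), Acod1 (0.01) or Cybb (-0.01). Ass1 ran against Arg1 (-0.69) and Slc7a2 (-0.64). Around the group means r was 0.83 for Nos2 and Acod1, 0.78 for Nos2 and Cybb, 0.90 for Acod1 and Cybb, and 0.59 for Nos2 and Ncf1. For Arg1 it was then 0.22 with Nos2, -0.14 with Acod1 and -0.40 with Cybb. Cybb and Ncf1 went from 0.74 to 0.14, and Ass1 and Cybb from 0.42 to 0.81. Ass1 stayed against Arg1 (-0.74) and Slc7a2 (-0.81). The count ratio of Nos2 to Arg1 was 1.35 in P815-IFNG light replicate 1 and between 0.0733 and 0.653 in the other 9 libraries, and it was 0.137 and 0.115 in the deep light and dark libraries. Nos2 thus exceeded Arg1 in counts in 1 of 12 tumors, in counts that are not corrected for the lengths of the genes.

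The genes most like each member were then ranked by r over the 10 libraries. For Acod1 they were Gbp6 (0.96), Gbp3 (0.95) and Cd274 (0.94), where the Gbp genes encode interferon-inducible GTPases and Cd274 the checkpoint ligand PD-L1. For Nos2 they were Atp7a (0.98), a copper transporter, Ifi202b (0.96), an interferon-inducible gene, and Itgb2 (0.96), the leukocyte integrin beta chain. For Cybb they were Slc16a10, Sdc3 and Ms4a4d (0.98, 0.98 and 0.97), and for Ncf1 Gda, Apba1 and Sp140 (0.96 each). After Slc7a2, Arg1 was most like Lox (0.90), the collagen cross-linking enzyme, and Sphk1 (0.89). Each was picked as the best of 11998 genes, so its r is high by choice.

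Ass1, at chr2:31470207-31520672 on the plus strand, was the steadiest of the 8 genes, with a 1.63-fold range of 109 to 178 CPM over the 10 libraries. It was 158, 146 and, in the deep library, 281 CPM in P815-IFNG light and 176, 116 and, in the deep library, 295 CPM in P815-IFNG dark. In P815-M it was 123, 137 and 109 CPM in light and 139, 111 and 178 CPM in dark. The fitted light effect was 0.01 (SE 0.19, 95% interval -0.38 to 0.41) in P815-IFNG and -0.22 (SE 0.20, 95% interval -0.62 to 0.19) in P815-M, and both intervals lie within a log2 value of 1 on either side of 0. In light it was the 1 gene of 8 whose comparable P815-IFNG libraries all lay above those of P815-M (12.9% of all tested genes did), by a fitted 0.28 (SE 0.21). Asl, the next enzyme of the citrulline cycle, was at -0.24 (SE 0.27) for light in P815-IFNG and 0.29 (SE 0.29) in P815-M.

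Gch1, at chr14:47153895-47189413 on the minus strand, was the other steady gene. It was 13.3, 9.76 and, in the deep library, 22.7 CPM in P815-IFNG light and 13.3, 10.7 and, in the deep library, 17.1 CPM in P815-IFNG dark. In P815-M it was 13.5, 20.6 and 16.1 CPM in light and 15.2, 14.1 and 24.7 CPM in dark. The light effect was 0.14 (SE 0.28, 95% interval -0.44 to 0.73) in P815-IFNG and -0.11 (SE 0.29, 95% interval -0.72 to 0.51) in P815-M. In dark P815-IFNG was at -0.68 relative to P815-M (SE 0.31, edgeR adjusted p = 0.273) and in light at -0.42 (SE 0.32, edgeR adjusted p = 0.676). Both comparable libraries were below all 3 of P815-M in dark and, narrowly (13.3 against 13.5 CPM), in light. The share of all tested genes that lay below in this way was not counted. Between 20 and 60 counts stood behind each value in the 10 libraries. In dark 3 of the 8 genes, Cybb, Ncf1 and Nos2, had every comparable P815-IFNG library above every P815-M library, against 18.6% of all tested genes. Other genes of tetrahydrobiopterin synthesis gave no call: Pts was at -0.34 (SE 0.26) and Spr at -0.23 (SE 0.27) for light in P815-IFNG, and Gchfr, the feedback regulator of Gch1, was not tested.

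**Figure D4:**
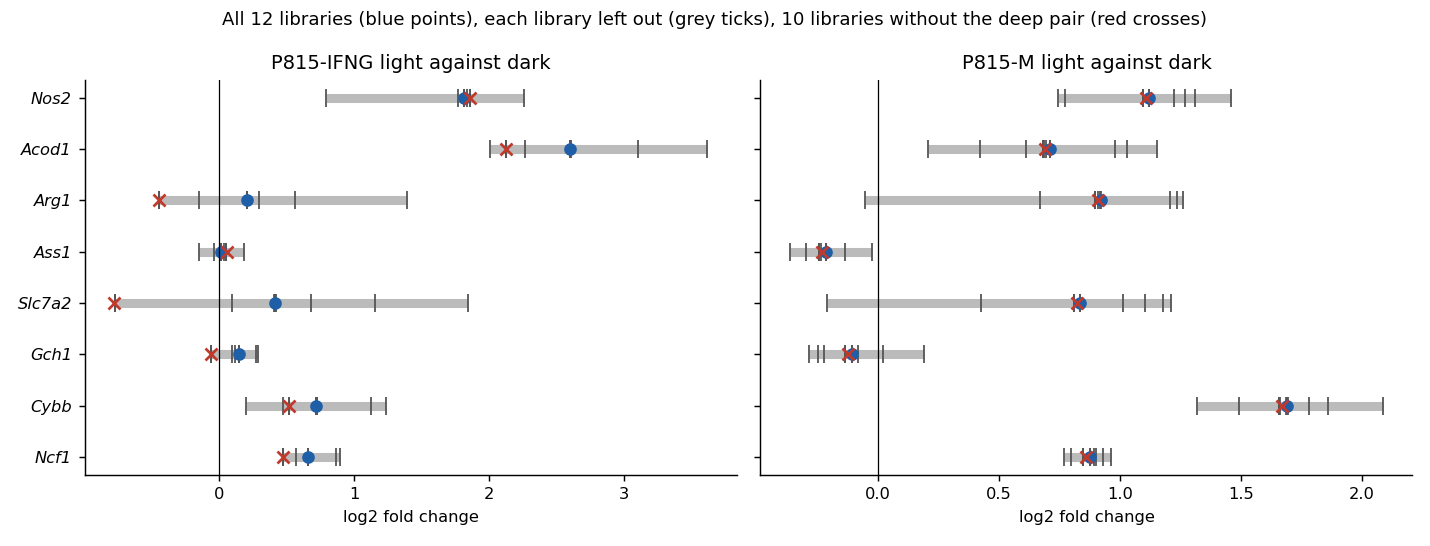
Fitted log2 fold change of light against dark (horizontal axis) for the 8 genes in P815-IFNG (left) and P815-M tumors (right). Blue points are the fit over 12 libraries, grey ticks and bars the values with each library left out in turn, and red crosses the fit over the 10 libraries without the deep pair. Nos2 in P815-IFNG ran from 0.79 to 2.25 and Slc7a2 from -0.78 to 1.84, while Cybb and Ncf1 in P815-M stayed above 0.

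To set levels of different genes against each other, they are given here per length of transcript. Length is not the only limit: the strand that was counted was not tested, and the row of Ncf1, which overlaps Gtf2ird2, is uncertain. In P815-M dark the mean CPM per kilobase of annotated exon was 71.1 for Arg1 and 59.1 for Ass1, followed by Ncf1 (10.9), Nos2 (7.27), Cybb (4.25), Acod1 (3.59), Gch1 (2.88) and Slc7a2 (2.74). In P815-M light Arg1 was at 134, Ass1 at 51.0, Ncf1 at 19.9, Nos2 at 16.0, Cybb at 14.0, Acod1 at 6.07, Slc7a2 at 4.82 and Gch1 at 2.68 CPM per kilobase. Arg1 and Ass1 led in both groups, though the 3 tumors of P815-M light spanned 140 to 592 CPM for Arg1, and neighbours such as Acod1 and Gch1 in dark did not differ beyond their spread. In the 2 P815-IFNG light libraries of lower total the order was Arg1 (94.6), Ass1 (63.0), Nos2 (43.6), Ncf1 (27.2), Cybb (21.9), Acod1 (18.1), Slc7a2 (4.38) and Gch1 (1.84), where the place of Nos2 rests on 1 of the 2 libraries (335 against 49.8 CPM). As a description of how the 2 kinds of library differ, the deep pair held, relative to the other P815-IFNG libraries, a 0.220 to 0.244 share of the mean CPM of Nos2, Acod1 and Cybb, a ratio of 0.923 for Arg1, and ratios of 1.69 and 1.93 for Gch1 and Ass1.

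Genes around these pathways were read from 8 lists of arginine, tetrahydrobiopterin, polyamine, itaconate, oxidase and macrophage genes and their regulators, with 56 genes other than the 8, of which 55 were tested. The 1 call was Klf4, a transcription factor of macrophages and other cells, at 1.37 for P815-IFNG against P815-M in dark (SE 0.30; edgeR adjusted p = 0.0181), and 0 of 55 were called in the other comparisons. The call rests on single tumors: the value was 0.70 without P815-IFNG dark replicate 2 (edgeR adjusted p = 0.245), and the call was also lost without P815-M dark replicate 1 (1.30, adjusted p = 0.0557) or 2 (1.39, adjusted p = 0.0646) and without a term for the deep libraries (1.06, adjusted p = 0.604). At an unadjusted p of at most 0.05, 3 were higher and 7 lower for light in P815-IFNG, 5 higher and 3 lower for light in P815-M, 7 higher and 1 lower between the lines in light, and 10 higher and 1 lower between the lines in dark, where 8.34%, 12.5%, 11.1% and 16.3% of all tested genes were at that p in either direction. Irf1, an interferon-induced transcription factor, was at 1.39 for light in P815-IFNG (SE 0.32; edgeR adjusted p = 0.158) and 0.97 in P815-M (SE 0.34; edgeR adjusted p = 0.216). The P815-IFNG value passed the threshold without P815-IFNG light replicate 2 (1.70, edgeR adjusted p = 0.0118) or P815-IFNG dark replicate 1 (1.78, edgeR adjusted p = 0.0211). Its light libraries lay above the dark ones of their kind in both lines, as did those of 8.58% of all tested genes in P815-IFNG and 10.1% in P815-M. In P815-IFNG the margin was narrow, with the higher dark library, at 91.2 CPM, just below the lower light library of its kind. Irf8, a factor of the myeloid lineage, was at 0.83 (SE 0.35) for light in P815-IFNG and at 1.32 (SE 0.39) for P815-IFNG against P815-M in light. Without P815-IFNG light replicate 1 these values were 0.39 and 0.80, and the second passed the threshold without P815-IFNG light replicate 2 (1.81, edgeR adjusted p = 0.0153).

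The 7 genes on the lower side for light in P815-IFNG were transporters and enzymes of arginine, ornithine and citrate. Slc7a1, the housekeeping arginine transporter, was at -0.50 (SE 0.17), Slc3a2, the heavy chain of several amino acid transporters, at -0.50 (SE 0.20), and Slc7a6, a light chain, at -0.44 (SE 0.21). Odc1 and Oat, which take ornithine towards polyamines and glutamate, were at -0.52 (SE 0.18) and -0.48 (SE 0.21). Slc25a1, the mitochondrial citrate carrier, was at -0.39 (SE 0.18) and Idh2 at -0.54 (SE 0.18). None passed the adjusted threshold, with edgeR adjusted p between 0.385 and 0.591. For light in P815-M, which has no light-switchable cassette, Odc1 was at -0.48 (SE 0.19), Slc25a1 at -0.43 (SE 0.19), Idh2 at -0.37 (SE 0.19), Slc3a2 at -0.33, Slc7a1 at -0.24, Oat at -0.03 and Slc7a6 at 0.15, and none was called there either. Arg2, the mitochondrial arginase, was at 0.23 (SE 0.42) in P815-IFNG and 0.24 (SE 0.42) in P815-M. The 6 genes listed as known from alternatively activated macrophages gave 0 calls and 0 unadjusted p of at most 0.05 in any comparison, with a median of -0.35 for light in P815-IFNG and 0.81 between the lines in dark.

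Macrophage marker levels varied along with several of the members. The 10 macrophage and monocyte markers summed to 1311 to 1608 CPM in P815-M light and 670 to 884 CPM in P815-M dark, without overlap, and all 10 had fitted values above 0 for light, 5 of them at an unadjusted p of at most 0.05, against 51.1% of all tested genes above 0 and 12.5% at that p. The called marker was Lyz2, lysozyme of myeloid cells, at 1.82 (SE 0.41, edgeR adjusted p = 0.0290), with 794, 587 and 470 CPM in light and 187, 60.9 and 273 CPM in dark. Lyz2 thus made up a large part of the summed level in P815-M light and of its difference from dark. A sum without Lyz2 was not made, and the r values with this list use the sum that holds it. In P815-IFNG the list summed to 1739, 1070 and, in the deep library, 673 CPM in light and to 1383, 1341 and, in the deep library, 584 CPM in dark, with 7 of 10 markers above 0 and 1 at that p. In dark 9 of 10 markers were above 0 for P815-IFNG against P815-M and 5 at that p, against 55.0% and 16.3% of all tested genes. The part of these cells in the differences of Cybb, Ncf1 and Nos2 was not tested.

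Over the 10 libraries the r between the summed macrophage list and each gene, on log2(CPM + 1), was 0.93 for Cybb, 0.83 for Ncf1, 0.79 for Nos2 and 0.63 for Acod1. It was 0.28 for Slc7a2, 0.22 for Arg1, 0.10 for Ass1 and -0.19 for Gch1. The mast cell list, which stands for the tumor cells themselves, gave -0.88 for Ncf1, -0.57 for Cybb, -0.51 for Nos2 and 0.62 for Gch1. The T and NK cell list gave 0.72 for Nos2, 0.65 for Cybb, 0.60 for Acod1 and 0.47 for Ncf1, and the neutrophil list -0.64 for Cybb, -0.56 for Acod1, -0.53 for Nos2 and -0.49 for Ncf1. P815-IFNG light replicate 1, the highest of the 10 for Nos2, Acod1, Cybb and Ncf1, also had the highest macrophage sum, 1739 CPM, and P815-M dark replicate 2, the lowest of the 10 for Nos2, Acod1 and Cybb, had the lowest of the 10, 670 CPM. Arg1 and Slc7a2 peaked in neither. Other lists did not overlap between P815-M light and dark either. The T and NK cell list was higher in light, at 57.1 to 101 against 28.1 to 53.1 CPM. The summed neutrophil list was lower in light, at 41.5 to 56.3 against 60.9 to 71.9 CPM. So was the summed mast cell list, at 1583 to 1797 against 1819 to 2345 CPM. The single markers were split: 4 of 8 mast cell, 3 of 7 neutrophil and 7 of 8 T and NK cell markers had fitted values above 0 for light. Of all tested genes 51.1% were above 0. In each of these lists 1 marker was at an unadjusted edgeR p of at most 0.05, against 12.5% of all tested genes. The part of these cells in the results was not tested.

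**Figure D5:**
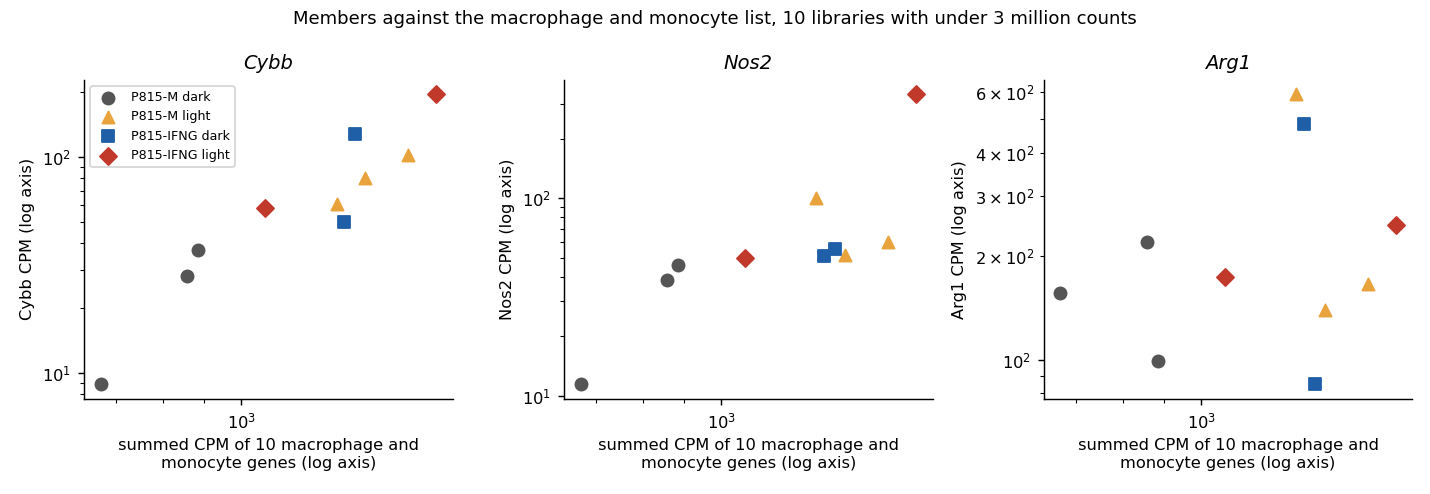
CPM of Cybb, Nos2 and Arg1 (vertical, log axis) against the summed CPM of 10 macrophage and monocyte genes (horizontal, log axis) in the 10 libraries of lower total. Cybb rises with the list (r = 0.93) and Nos2 less closely (0.79), whereas Arg1 shows little relation (0.22).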

How the data were processed

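RNA-seq of 12 tumors was used, 3 mice in each of 4 groups. The authors deposited unnormalized read counts by gene symbol. They trimmed reads with fastp, aligned them with STAR 2.7.9a to mm10 plus the inserted transgenes, and counted with HTSeq 0.13.5 at default settings; the annotation release is not given in the sources used here. They hold 32288 rows, with 38 duplicated symbols. The authors' later batch adjustment is not in these counts.

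The 13 mitochondrial rows were removed, and rows with at least 10 counts over the 12 libraries were fitted with edgeR 4.0.16 in R 4.3.3 (TMM, quasi-likelihood test, Benjamini-Hochberg adjustment over all tested genes), with 1 mean per group and a term for the 2 libraries with over 10000000 counts, at 7 residual degrees of freedom. CPM is TMM-scaled. Intervals are 95%. Single values were compared by two-sided exact permutation tests. Alternatives were no such term, 10 libraries only, DESeq2 1.42.0 and its size factors, no filter, ComBat-seq of sva 3.50.0, a replicate block and each library left out. Gene lists, named here as arginine recycling, arginine transport, tetrahydrobiopterin, polyamine, itaconate, oxidase, regulator and macrophage genes, came from general knowledge. Listed genes could be named if called, at an unadjusted p of at most 0.05, or a partner of a member; values of some listed genes are not reported here. The members and lists were chosen with earlier results of these data known. Gtf2ird2 and Lyz2 were picked after seeing their values, and Gm26584 for its exon overlap with Slc7a2. Positions came from GENCODE M21 (GRCm38) and promoters from RefSeq GRCm38.p6. The fit was tested on simulated counts in which known fold changes had been set. Python 3.11.15, pandas 2.3.3, scipy 1.17.1 and matplotlib 3.10.9 were used.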

Additional observations from a re-analysis of the deposited data

How the results depend on the processing

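Over all 12 libraries the call rule gave 2, 194, 82, 290 and 3 of all tested genes for light in P815-IFNG, light in P815-M, the lines in light, the lines in dark and the difference in the light effect, and 0, 0, 0, 1 and 0 of the 8 genes. Without a term for the deep libraries edgeR gave 0, 0, 3, 2 and 0 genes (409, 510, 1276, 1290 and 313 at an unadjusted p of at most 0.05) and 0 of the 8 in dark. Over the 10 libraries it gave 1 and 39 genes for P815-IFNG light and the lines in light, and 0 of the 8 in dark; with DESeq2 size factors it gave 1 for the difference and 0 of the 8 in dark. Without a filter it gave 211, 429, 245, 640 and 203 genes and 2, 2, 2, 1 and 1 of the 8, but there the prior degrees of freedom were infinite, so every gene took the spread of its trend. DESeq2 gave 58, 293 and 23 genes for light in either line and for the difference, and 1 of the 8 for light in P815-M. ComBat-seq gave 157, 262, 570 and 40 genes for P815-IFNG light, the lines in light, the lines in dark and the difference, and 3, 1 and 3 of the 8 for light in P815-IFNG, light in P815-M and the lines in light. The cause of these shifts was otherwise not tested.

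Replicate numbers name separate mice. The deviations of same-numbered libraries from their group means correlated at -0.30 to 0.25 over 13 pairs among the 10 libraries. Differently numbered libraries gave -0.25 to 0.19 over 24 pairs. These values cannot decide whether replicate numbers pair the tumors, because deviations within a group depend on each other and the deep pair was left out. A replicate block gave 62 and 16 genes for P815-IFNG light and the difference, and 2, 2 and 2 of the 8 for light in P815-IFNG, light in P815-M and the lines in light; under the block Acod1 in dark turned to 0.31 and Arg1 in light to 0.28.

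With each library left out, all-gene counts ranged over 1 to 52, 61 to 237, 29 to 161, 153 to 444 and 1 to 14, and counts of the 8 over 0 to 2, 0 to 1, 0 to 1, 0 to 1 and 0 to 0. Signs turned in these ranges for Arg1 (-0.44 to 1.39 for P815-IFNG light, -0.053 to 1.26 for P815-M light, -0.49 to 0.82 for the lines in light, -0.95 to 1.01 in dark, -1.34 to 0.47 for the difference), for Slc7a2 (-0.78 to 1.84, -0.21 to 1.21, -0.12 to 1.61, -0.86 to 1.46 and -1.58 to 1.01), for Ass1 (-0.15 to 0.18 for P815-IFNG light, -0.16 to 0.26 in dark), for Gch1 (-0.065 to 0.28 for P815-IFNG light, -0.29 to 0.19 for P815-M light, -0.047 to 0.43 for the difference), for Acod1 in dark (-1.36 to 0.35), and for the difference of Ncf1 (-0.38 to 0.015) and Nos2 (-0.31 to 1.14). Other turns were Acod1 in dark (0.15), Arg1 (-0.45), Slc7a2 (-0.78) and Gch1 (-0.063) for P815-IFNG light and Slc7a2 for the lines in light (-0.14) over the 10 libraries; Ass1 (-0.0044) and Slc7a2 (-0.095) for P815-IFNG light without the term; Ass1 in dark with DESeq2 size factors (-0.015) and DESeq2 (-0.015); and Arg1 for the lines in light (0.22) and the Slc7a2 difference (0.72) with ComBat-seq. Counts of 20 to 60 for Gch1 and 1 to 193 for Acod1 limit the precision of these genes in the 10 libraries.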
